A study of Homo sapiens with 4 samples.

Results

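LY96 and 9 genes of Toll-like receptor signalling were followed in CAL27 cells labelled as overexpressing CCL20 and in negative control cells. The 10 genes were LY96, the receptors TLR2, TLR3, TLR4 and TLR6, the adaptors MYD88 and TICAM1, the kinases IRAK1 and IRAK4, and the ubiquitin ligase TRAF6. They were taken by symbol from 29437 listed genes, and all 10 had a value. The set was chosen on the measured values of LY96, whose log2 fold change between the groups was among the highest. Its fold change is therefore described here without a test. The other 9 genes were taken as genes of the pathway, but with earlier results of these data known. CAL27 cells are a long-used human tongue carcinoma line of squamous origin, and CCL20 is the chemokine ligand of the receptor CCR6. A lentivirus carried CCL20 into the overexpressing cells, per the labels, and polyadenylated RNA was taken after 48 hours. There were 2 libraries for each group. The labels do not say which virus, if any, the negative control received, whether the line is 1 clone, or whether the 2 libraries of a group came from separate cultures, so p-values measure only the spread between these libraries, which may be technical.

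Toll-like receptors recognise microbial molecules and signal through an intracellular TIR domain. LY96, also called MD-2, is a small secreted protein that binds lipopolysaccharide in complex with TLR4. TLR2 pairs with TLR6 or TLR1 on bacterial lipopeptides, and TLR3 binds double-stranded RNA in endosomes. The adaptor MYD88 serves TLR2, TLR4 and TLR6 and recruits IRAK4 and IRAK1, which pass the signal to TRAF6 and on to NF-kB and MAP kinases, while TICAM1 (TRIF) serves TLR3 and, with TICAM2, TLR4. In stratified epithelium these receptors contribute to the release of chemokines and antimicrobial proteins.

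Total counts lay between 13681862 and 17860695 reads per library. Averaged over reads, the length of the gene hit was 6226 and 6130 nt in the controls, against 5313 and 5013 nt with overexpression, so long genes hold fewer of the reads in the overexpression group. CCL20, the check of the labels, had 188 and 202 reads in the control libraries and 372 and 303 with overexpression, a log2 change of 0.95 (SE 0.21, edgeR adjusted p = 0.0143). After a correction for mRNA length it was 0.06 (SE 0.24, edgeR adjusted p = 0.916). The CCL20 call also ended on the TPM scale (edgeR adjusted p = 0.172) and without control replicate 1 or 2 (edgeR adjusted p = 0.0945 and 0.197). Of 8 squamous epithelial markers all had reads in every library, with KRT5 highest at 362 to 521 FPKM. KRT14, named after its values were seen, was lowest at 0.712 to 1.11 FPKM and was not tested. By edgeR 2 of the 7 tested were higher and 2 lower at an adjusted p under 0.05, beside 16.5% and 15.7% of all tested genes. Corrected for mRNA length, 0 of the 7 were called, beside 6.90% of 10572 coding genes. FPKM is the read count scaled to gene length and to the total count of the library. The fold changes are edgeR estimates on counts scaled by TMM factors, which adjust for composition, and they differ from ratios of FPKM.

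Promoter letters were sought for the tested genes other than LY96 with the largest decreases, TLR6, TLR3 and TRAF6. For TRAF6 the window of 250 bases began inside an exon and gave 0 bases, so only the letters of TLR3 and TLR6 are shown. They are the bases before the RefSeq start that lie outside every GENCODE 29 exon, at GRCh38.p14 chr4:186068906-186069151 (plus strand) for TLR3 and chr4:38856818-38857067 (minus strand) for TLR6, 5′ to 3′, with motif matches in capitals.
TLR3: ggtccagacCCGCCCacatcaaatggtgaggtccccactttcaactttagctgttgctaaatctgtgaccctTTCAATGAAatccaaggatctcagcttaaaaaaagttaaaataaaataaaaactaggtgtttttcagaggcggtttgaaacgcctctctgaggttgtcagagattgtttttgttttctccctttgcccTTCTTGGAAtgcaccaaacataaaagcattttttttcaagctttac
TLR6: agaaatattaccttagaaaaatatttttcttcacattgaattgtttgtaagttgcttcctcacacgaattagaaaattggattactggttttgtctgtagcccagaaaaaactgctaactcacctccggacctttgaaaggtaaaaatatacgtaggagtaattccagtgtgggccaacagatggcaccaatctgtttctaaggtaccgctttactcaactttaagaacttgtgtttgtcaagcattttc
Both strands were searched for 6 motifs, counting overlapping matches. The TLR3 stretch held 1 GC box (GGGCGG, in 42.6% of 35116 RefSeq promoters over 250 bases) and 2 matches of the STAT motif TTCNNNGAA (6.57% of promoters). It held none of TATAAA (10.7%), the AP-1 motif TGANTCA (6.57%), a relaxed NF-kB motif (GGG and CC, 5 bases apart, 54.4%) or an interferon-response motif (GAAA repeated after 2 bases, 3.02%). In the TLR6 stretch none of the 6 was found. GC content was 39.4% in TLR3 and 36.4% in TLR6. A match describes the letters and says nothing about binding.

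The intracellular signalling genes were the most abundant of the 10 genes and the receptors the least. In the control, mean levels were 63.3 FPKM for IRAK1, 13.1 for TRAF6, 12.5 for TICAM1, 6.72 for MYD88 and 4.96 for IRAK4. The 4 receptors lay between 0.725 FPKM (TLR4) and 2.37 FPKM (TLR2). LY96 had rank 9 of the 10, at 0.911 FPKM. Neighbours in this order had separate ranges except TLR6 with TLR3 and LY96 with TLR4. With overexpression LY96 had rank 6, above the 4 receptors, at 2.76 FPKM, and the ranges of MYD88 and IRAK4, and of TLR3 and TLR6, overlapped. IRAK1 remained first at 52.5 FPKM, and TICAM1 stood above TRAF6. The rank of LY96 with overexpression rests on 25 and 29 reads. Their exact Poisson 95% intervals, 1.74 to 3.96 and 1.90 to 4.07 FPKM, reached values of TLR2 and IRAK4.

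**Figure D1:**
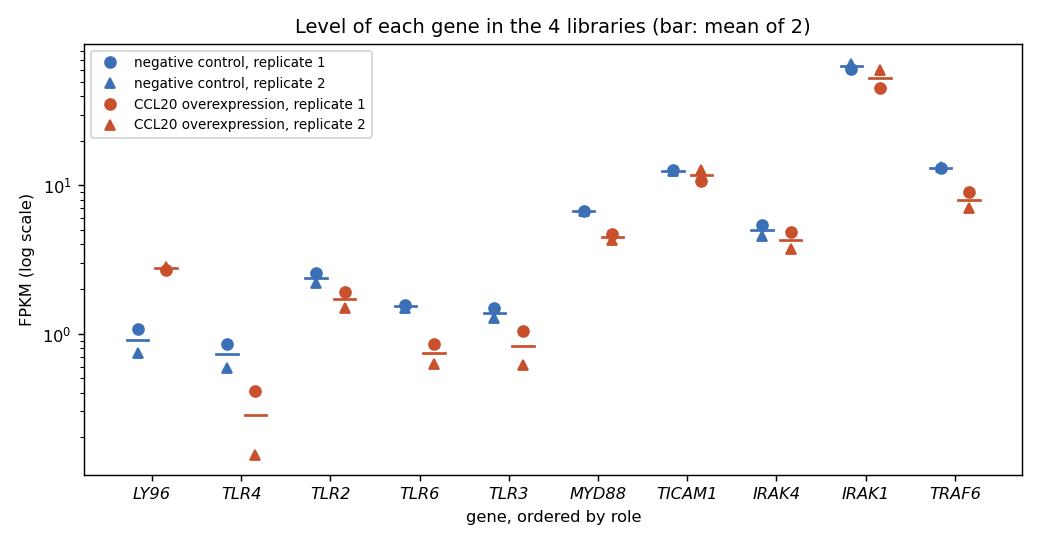
FPKM on a log scale for the 10 genes in each library, with circles for replicate 1, triangles for replicate 2 and a bar at the mean of 2; blue is the negative control and orange CCL20 overexpression. LY96 lies above its controls, at 2.68 and 2.83 against 1.08 and 0.738 FPKM, while TLR2, TLR3, TLR4, TLR6, MYD88, IRAK1 and TRAF6 lie below theirs.

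LY96 (ENSG00000154589; GRCh38 chromosome 8, 73991352 to 74029087, plus strand) codes for protein, and its mRNA of 607 nt is the shortest of the 10. It had 9 and 8 reads in the control libraries and 25 and 29 with overexpression. Both overexpression libraries were above both controls. In FPKM this was 0.911 ± 0.245 against 2.76 ± 0.106 (SD, n = 2 each), and the edgeR log2 fold change was 1.81 (SE 0.51), or 3.52-fold. The value rests on few reads. The exact Poisson 95% interval ran from 4.12 to 17.1 for the 9 reads and from 16.2 to 36.9 for the 25 reads. From the pooled 17 and 54 reads the ratio was 3.60, with an exact 95% interval of 2.06 to 6.63. These intervals cover counting error only, not the spread between replicates or the choice of LY96 by its fold change.

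By log2 fold change LY96 had rank 5 among 10572 tested coding genes, a rank that chose it and supports nothing further. The gene just above it, TMEM160, had a log2 fold change of 1.82, and the gene just below, UFSP1, 1.81. In the control group LY96 was below the expression minimum of a mean of 1 FPKM over the 4 libraries, and it passed through the overexpression group. Short mRNAs were higher with overexpression in general. When coding genes were split by mRNA length into 10 bins, 998 of 1058 in the shortest bin had a log2 fold change above 0, with a median of 0.98 and quartiles of 0.69 and 1.21. LY96 had rank 5 within that bin too. Corrected for mRNA length, its log2 fold change was 0.84 (SE 0.51), and leaving out 1 library at a time without that correction gave 1.55 to 2.09.

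The 5 coding genes whose pattern was most like that of LY96 were ELOB, ZNF358, SAA1, GADD45GIP1 and RPS28. Likeness is the Euclidean distance between log2 deviations from the gene's mean over the 4 libraries, from 0.0979 for ELOB to 0.193 for RPS28. They had 107 to 14360 reads per library, far more than LY96, and mRNAs of 615 to 1954 nt. Among them SAA1, an acute-phase protein, had 237 and 244 reads in the control and 558 and 720 with overexpression. ELOB, a subunit of elongin and of cullin ligases, went from 2307 and 2421 to 6105 and 6814 reads. Their log2 fold changes lay between 1.42 for RPS28 and 1.60 for ELOB. Because they were picked for the pattern of LY96, their rises follow from that choice and are described without a test. Corrected for mRNA length, the log2 fold changes were 0.78 for ELOB, 1.22 for ZNF358, 0.57 for SAA1, 1.06 for GADD45GIP1 and 0.75 for RPS28. Reads of RPS28 may be shared with its processed copies.

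Of the 10 genes 9 passed the expression minimum, TLR4 did not, and LY96, TLR3 and TLR6 passed with a mean below 1 FPKM in 1 group. Of the 8 tested genes other than LY96, TLR6 fell and none rose by edgeR's quasi-likelihood test at an adjusted p under 0.05. Over all 12168 tested genes 15.7% were called lower and 16.5% higher. The count of 1 in 8 is near that background. At an unadjusted p under 0.05, TLR6 and TRAF6 were lower and 0 were higher, and DESeq2 called 0 of the 8, where it called 16.9% of all tested genes lower. Their median log2 fold change was -0.32, against 0.0019 over all tested genes, and 7 of 8 were below 0. The 7 include IRAK1 (-0.06) and IRAK4 (-0.0068), whose signs turned in other fits. On FPKM, 6 of the 8 were lower in both overexpression libraries than in both controls, where 46.9% of tested genes were. On TMM-scaled counts 5 of the 8 were, beside 35.8% of tested genes.

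TLR6 (ENSG00000174130; GRCh38 chromosome 4, 38823715 to 38856817, minus strand), the partner of TLR2, had 1.56 and 1.49 FPKM in the control libraries and 0.853 and 0.629 with overexpression. The groups did not overlap. It fell 1.80-fold (log2 change -0.85, SE 0.25, edgeR adjusted p = 0.0357). The call ended without control replicate 1 (-0.82, edgeR adjusted p = 0.277) or control replicate 2 (-0.87, edgeR adjusted p = 0.217), with DESeq2 (-0.85, DESeq2 adjusted p = 0.0531), with limma at a pseudocount of 0.1 (-0.97, limma adjusted p = 0.0667) and with the length correction (-0.51, SE 0.24, edgeR adjusted p = 0.238). In fits without a control library far fewer of all tested genes were called as well. The exons of TLR6 share 57 nt with those of TLR1.

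TLR2 (ENSG00000137462; chromosome 4, 153684070 to 153705702, plus strand) had the highest level of the receptors, with 2.55 and 2.19 FPKM in the control and 1.91 and 1.50 with overexpression. Both overexpression libraries were below both controls, and the log2 fold change was -0.27 (SE 0.22, edgeR adjusted p = 0.360). TLR3 (ENSG00000164342; chromosome 4, 186069152 to 186088069, plus strand) had 1.50 and 1.27 against 1.05 and 0.617 FPKM. Its groups did not overlap either, yet the overexpression replicates differed from each other by -0.66 on the log2 scale, more than the group difference of -0.54 (SE 0.28, edgeR adjusted p = 0.170). With the length correction this was -0.02 (SE 0.26). TLR3 was called without overexpression replicate 1 (-0.91, edgeR adjusted p = 0.00316), a fit that called 31.5% of all tested genes lower. It was not called without overexpression replicate 2 (-0.24, edgeR adjusted p = 0.444), control replicate 1 (edgeR adjusted p = 0.604) or control replicate 2 (edgeR adjusted p = 0.356). The level of TLR2 was 1.63 and 1.47 times that of TLR6 in the control libraries and 2.24 and 2.39 times with overexpression.

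TLR4 (ENSG00000136869; chromosome 9, 117704175 to 117724730, plus strand), the signalling partner of LY96, was the lowest of the 10 genes in both groups. It had 156 and 140 reads in the control libraries, or 0.859 and 0.591 FPKM, and 84 and 34 reads with overexpression, or 0.412 and 0.152 FPKM. The overexpression libraries were below the controls, and the second of them held the fewest reads. Tested without the expression minimum, its log2 fold change was -1.12 (SE 0.29, edgeR adjusted p = 0.00146), in a fit that called 8.51% of 29437 genes lower. With the minimum, edgeR called 15.7% of 12168 genes lower. The overexpression replicates differed from each other by -1.34 on the log2 scale, more than the groups did. With edgeR's own filter on low counts the call ended (edgeR adjusted p = 0.0689). A length correction over coding genes with a mean of at least 0.1 FPKM, added after the data were seen, gave -0.47 (SE 0.35, edgeR adjusted p = 0.452), where 3.31% of genes were called lower. The principal mRNAs of TLR4 have a median length of 9142.5 nt, the longest of the 10. Tested coding genes of its length bin had a median log2 fold change of -0.73, and edgeR called 61.3% of them lower. The ratio of LY96 to TLR4 in FPKM was 1.26 and 1.25 in the control and 6.51 and 18.6 with overexpression, a description that carries the choice of LY96 in it. In these bulk libraries fewer cells with a transcript and less of it per cell cannot be told apart.

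**Figure D2:**
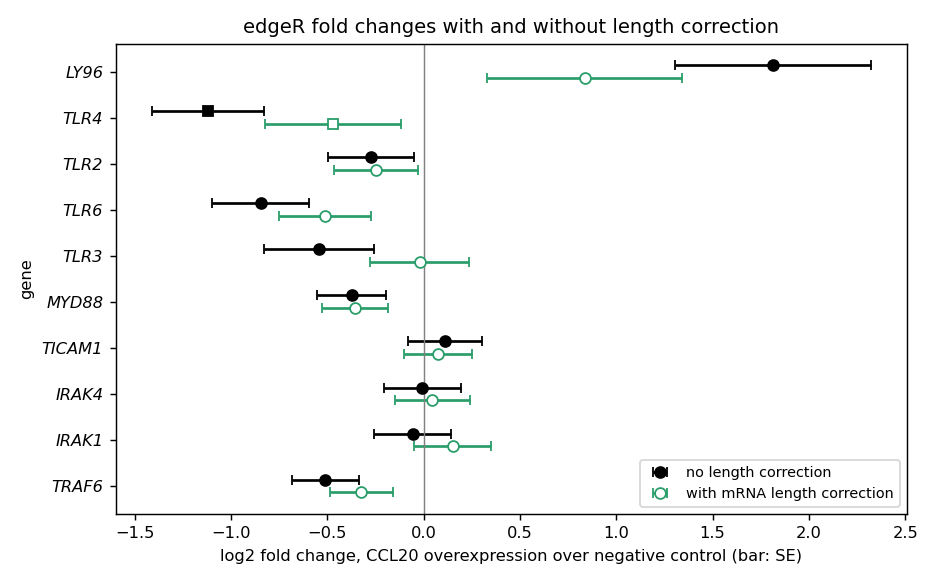
Log2 fold change of each gene with its SE, from edgeR, without (black, filled) and with (green, open) the mRNA length correction; squares mark TLR4, fitted without the expression minimum (black) and with a minimum of 0.1 FPKM (green). LY96 moves from 1.81 to 0.84, TLR6 from -0.85 to -0.51 and TLR3 from -0.54 to -0.02, while MYD88 stays near -0.37.

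MYD88 (ENSG00000172936; chromosome 3, 38138478 to 38143022, plus strand), the adaptor of most Toll-like receptors, had 6.74 and 6.70 FPKM in the control and 4.72 and 4.29 with overexpression. Its replicates were closer to each other than the groups were, and the log2 fold change was -0.37 (SE 0.18, edgeR adjusted p = 0.139). The length-corrected value was -0.36 (SE 0.17), close to the uncorrected one. MYD88 was called without overexpression replicate 1 (-0.39, edgeR adjusted p = 0.0335), where 31.5% of all tested genes were called lower, and not without control replicate 1 or 2 (edgeR adjusted p = 0.603 and 0.576). TICAM1 (ENSG00000127666; chromosome 19, 4815932 to 4831704, minus strand) had 12.6 and 12.4 FPKM against 10.7 and 12.6. The groups overlapped, and the log2 fold change was 0.11 (SE 0.19, edgeR adjusted p = 0.678).

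IRAK4 (ENSG00000198001; chromosome 12, 43758944 to 43789543, plus strand), the first kinase recruited, had 5.40 and 4.53 FPKM in the control and 4.87 and 3.73 with overexpression, with overlapping groups and a log2 fold change of -0.0068 (SE 0.20). IRAK1 (ENSG00000184216; chromosome X, 154010500 to 154019980, minus strand) had 60.5 and 66.2 FPKM against 45.2 and 59.8. Both overexpression libraries were lower on FPKM, but on TMM-scaled counts the groups overlapped and the log2 fold change was -0.06 (SE 0.20, edgeR adjusted p = 0.845). Without overexpression replicate 2 IRAK1 was called lower (-0.33, edgeR adjusted p = 0.0114), in a fit that called 26.6% of all tested genes lower, and without overexpression replicate 1 it had the other sign (0.17, edgeR adjusted p = 0.199). TRAF6 (ENSG00000175104; chromosome 11, 36487027 to 36510272, minus strand), a ubiquitin ligase that activates the kinase TAK1, had 13.0 and 13.2 FPKM against 9.05 and 6.99. The groups did not overlap, and its log2 fold change of -0.51 (SE 0.17) just missed the threshold (edgeR adjusted p = 0.0541). It was called without overexpression replicate 1 (-0.66, edgeR adjusted p = 4.98e-06) or replicate 2 (-0.38, edgeR adjusted p = 0.01005), the same fits with 31.5% and 26.6% of all tested genes called lower. Without control replicate 1 or 2 TRAF6 was not called (-0.53 and -0.50), in fits that called far fewer of all tested genes.

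Other scalings lowered the values of these genes. By total count, the median over all tested genes was -0.21 (log2), and on a TPM scale it was -0.49. Of the 8 tested genes other than LY96, 3 were then called lower by total count (MYD88, TLR6 and TRAF6) and 6 on the TPM scale, all except IRAK4 and TICAM1. Over all tested genes 24.5% were called lower by total count and 37.1% on the TPM scale. TICAM1 took the other sign in both, at -0.11 and -0.39. Under the length correction edgeR called 0 of the 8, also at an unadjusted p under 0.05, where 6.90% of 10572 coding genes were called and 3.23% were called lower. The median over the 8 was then -0.13.

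**Figure D3:**
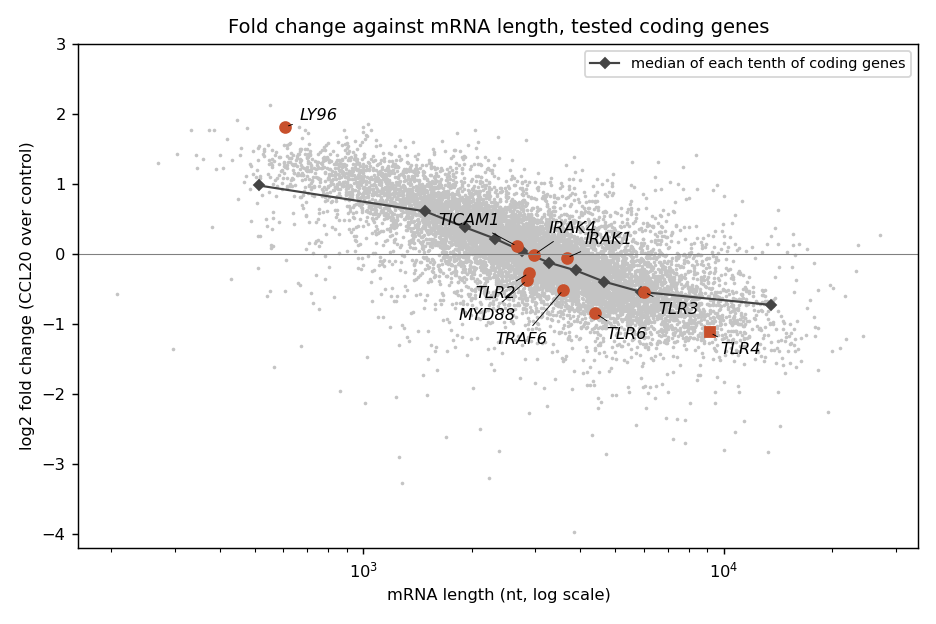
Log2 fold change against mRNA length on a log scale for 10572 tested coding genes (grey), with the median of each of 10 length bins (diamonds, at the middle of the bin on the log scale) and the 10 genes in orange; TLR4 (square) comes from the fit without the expression minimum. LY96 lies above the median of 0.98 in the bin with the shortest mRNAs, TLR3 on the median of -0.54 of its bin, and TLR6 below the median of -0.39 of its bin.

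The other genes of the pathway were taken as 7 lists with 83 genes, of which 76 had a value and 60 were tested. By edgeR 7 were higher and 6 lower at an adjusted p under 0.05, which is 13 of 60 where 32.2% of all tested genes were called, and their median log2 fold change was 0.02. By total count the split was 2 higher and 11 lower, and on the TPM scale 0 and 20. All tested genes leaned the same way, with 10.3% higher and 24.5% lower by total count and 4.11% and 37.1% on the TPM scale. The 13 calls did not hold without control replicate 1 or without control replicate 2, fits that leave a lone control library. Far fewer of all tested genes were called in those fits too. The median over the 60 was then 0.016 and 0.0087. After correction for length 3 of the 60 were called, beside 6.90% of 10572 coding genes.

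**Figure D4:**
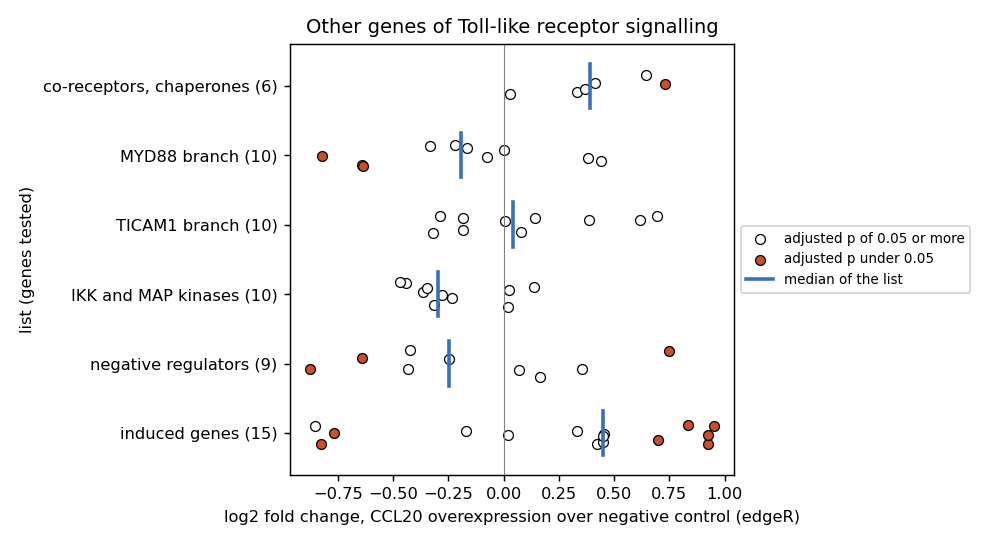
Log2 fold change of the tested genes in 6 of the 7 lists (edgeR; the other receptors had no tested gene), filled where the adjusted p was under 0.05, with a bar at each list's median. The induced genes have calls on both sides, and no gene of the TICAM1 branch or of the kinases downstream passed the threshold.

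The other receptors were low. TLR1 had 0.564 and 0.383 FPKM in the control and 0.474 and 0.405 with overexpression, with overlapping groups. TLR5, the flagellin receptor, had 0.508 and 0.476 against 0.151 and 0.374 FPKM. TLR10 was listed at 0 in 3 of the 4 libraries, and no value for TLR7, TLR8 or TLR9 was analysed here. Among 6 tested co-receptors and chaperones 1 rose and 0 fell, beside 16.5% and 15.7% of all tested genes, with a median of 0.39. CNPY3, a chaperone that brings Toll-like receptors to the surface, rose 1.66-fold, from 18.1 and 18.3 FPKM to 22.0 and 30.1 (log2 change 0.73, SE 0.22, edgeR adjusted p = 0.0364). Corrected for length it was not called (0.26, edgeR adjusted p = 0.460), nor by total count (edgeR adjusted p = 0.0877), on the TPM scale (edgeR adjusted p = 0.415) or with limma at a pseudocount of 1 (limma adjusted p = 0.0946) or 0.1 (limma adjusted p = 0.101). HSP90B1, the chaperone gp96, had 153 and 161 FPKM against 202 and 152. CD14, which hands lipopolysaccharide to LY96 and TLR4 and is named after its values were seen, had 1.05 and 1.13 against 1.21 and 1.73 FPKM (edgeR adjusted p = 0.212).

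Among 10 tested genes of the MYD88 branch 2 fell and 0 rose, beside 15.7% and 16.5% of all tested genes. The list's median was -0.19. TAB3, a subunit that links TAK1 to ubiquitin chains, fell 1.56-fold from 9.64 and 10.2 FPKM to 6.75 and 4.41 (log2 change -0.64, SE 0.20, edgeR adjusted p = 0.0446), and the call ended with the length correction (-0.08) and with edgeR's filter on low counts (edgeR adjusted p = 0.0632). UBE2V1, the cofactor of UBE2N in making ubiquitin chains, fell from 1.52 and 1.74 FPKM to 0.838 and 0.763 (-0.82, SE 0.26, edgeR adjusted p = 0.0406), and was also called with the length correction (-1.07, edgeR adjusted p = 0.0434). The UBE2V1 call ended with DESeq2 (DESeq2 adjusted p = 0.0756), with edgeR's filter on low counts (edgeR adjusted p = 0.0523) and with limma at a pseudocount of 0.1 (limma adjusted p = 0.0579). Its exons share 2066 nt with a readthrough gene, so its value is uncertain. UBE2V1 passed the expression minimum through the control group, with a mean of 1.63 FPKM there and 0.800 FPKM with overexpression. UBE2N, named after its values were seen, was called higher only in the corrected fit (0.82, edgeR adjusted p = 0.0283).

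Of the 10 tested genes of the TICAM1 branch edgeR and DESeq2 called 0, with 2 higher at an unadjusted p under 0.05. Over all tested genes edgeR called 32.2%. The list's median was 0.04. TICAM2, named after its values were seen, had 2 reads in control replicate 1 and 0 in each other library. IRF3, the transcription factor at the end of this branch, had 11.019 and 13.6 FPKM against 12.8 and 19.7, and TBK1, the kinase that phosphorylates it, 13.7 and 10.8 against 10.2 and 8.48. The IKK and MAP kinases also had 0 of 10 called by edgeR or DESeq2, beside the same 32.2% by edgeR. At an unadjusted p under 0.05, 1 was lower, and the median was -0.30. MAP2K3 had 28.3 and 30.3 FPKM against 25.2 and 26.3, and MAPK14, the p38 kinase, 16.4 and 16.1 against 11.2 and 9.24 (edgeR adjusted p = 0.0571).

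Of 9 tested negative regulators 1 was called higher and 2 lower, beside 16.5% and 15.7% of all tested genes, with a median of -0.25. TNFAIP3, the ubiquitin-editing enzyme A20, fell 1.56-fold from 93.2 and 87.6 FPKM to 58.6 and 42.3 (log2 change -0.64, SE 0.18, edgeR adjusted p = 0.0279). NLRX1, a mitochondrial regulator, fell 1.83-fold from 1.99 and 2.27 FPKM to 0.918 and 1.09 (edgeR adjusted p = 0.0289). SIGIRR, a receptor that restrains Toll-like receptor and interleukin-1 signalling, rose 1.68-fold from 2.91 and 3.62 FPKM to 4.396 and 5.10 (edgeR adjusted p = 0.0364). The length correction ended the 3 calls, with log2 fold changes of -0.28, -0.66 and 0.25. For SIGIRR the call also ended by total count (edgeR adjusted p = 0.0888), on the TPM scale (edgeR adjusted p = 0.383) and with limma at a pseudocount of 1 (limma adjusted p = 0.0871) or 0.1 (limma adjusted p = 0.0875).

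Genes that Toll-like receptors commonly induce in epithelium were higher in 5 of 15 tested and lower in 2, beside 16.5% and 15.7% of all tested genes, with a median of 0.45. ICAM1, an adhesion molecule for leukocytes, fell 1.77-fold from 66.3 and 64.0 FPKM to 32.6 and 31.2 (log2 change -0.83, SE 0.16, edgeR adjusted p = 0.00803), and was also called with the length correction (-0.71, edgeR adjusted p = 0.0287). Part of its exons lies opposite to other genes, and no strand setting is given. NFKBIZ, an inducible NF-kB cofactor, fell from 14.1 and 13.8 FPKM to 7.92 and 6.31 (-0.77, SE 0.17, edgeR adjusted p = 0.0134). CSF2 rose from 69.6 and 63.6 FPKM to 124 and 95.8 (0.92, SE 0.17, edgeR adjusted p = 0.00813), and IL6 from 16.003 and 11.9 to 27.5 and 18.6 (0.92, SE 0.23, edgeR adjusted p = 0.0194). The remaining 3, CXCL1, CXCL2 and LCN2, named after their values were seen, were higher. The 5 genes called higher have mRNAs of 787 to 1354.5 nt and the 2 called lower 3252 and 3923 nt. Corrected for length, NFKBIZ (edgeR adjusted p = 0.0903), CSF2 (0.02, edgeR adjusted p = 0.963) and IL6 (0.29, edgeR adjusted p = 0.529) were not called, and CXCL1, CXCL2 and LCN2 were not called either. The CSF2 call also ended on the TPM scale (edgeR adjusted p = 0.142). For IL6 it ended by total count (edgeR adjusted p = 0.0505), on the TPM scale (edgeR adjusted p = 0.233) and with limma at a pseudocount of 1 (limma adjusted p = 0.0676) or 0.1 (limma adjusted p = 0.0743). CXCL1 and CXCL2 are close paralogs whose reads can be confused.

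LY96, TLR2, TLR4 and CD14 are also genes of monocytes and macrophages, so markers of these cells were read beside them. Of 10 markers 5 had a value. PTPRC and CD68 were each listed at 0 in 3 of the 4 libraries, and CSF1R was highest, at 2.98 and 2.52 FPKM in the control and 1.68 and 1.92 with overexpression. The summed level was 4.003 and 3.53 FPKM in the control libraries and 2.57 and 3.11 with overexpression, and most of it was CSF1R. FCER1G, named after its values were seen, went the other way without overlap. It had 0.303 and 0.174 FPKM (4 and 3 reads) in the control and 0.338 and 0.553 (5 and 9 reads) with overexpression. Without the expression minimum its log2 change was 1.16 (SE 1.17, edgeR adjusted p = 0.627). The part of these cells in the LY96 result was not tested. Summed lymphocyte markers (3 of 6 with a value) were 0.208 to 0.484 FPKM in the 4 libraries. By the mean over these libraries CD3E was highest, on 6 to 10 reads each, but the highest gene differed between libraries. Fibroblast markers summed to 2.93 to 5.58 FPKM, mostly COL1A1, and endothelial markers to 5.29 to 8.997 FPKM, mostly CDH5. Both sums were lower in the overexpression libraries than in the controls, and their part in the results was not tested.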

How the data were processed

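Polyadenylated RNA of 4 CAL27 libraries was sequenced from 1.5 µg of RNA each. Per the submitters' processing notes the tools were HISAT2, of no stated version, and HTSeq 0.13.5, on GRCh38. The annotation, the trimming and the use of strand were not given in the sources used here. Per the file headers, the authors deposited a count and an FPKM value per gene: counts are whole reads per gene, not normalized, and FPKM scales the count to gene length and to the library total. The implied lengths equal the GENCODE 29 union exon length for 99.7% of genes, and all 29437 identifiers matched GENCODE 29, which gave positions and mRNA lengths (median of the annotated principal transcripts).

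Each library was put in its group by its label. Replicates differed by more than sampling noise (chi-square per gene of 6.45 for the controls and 38.0 for the overexpression libraries). Counts were tested with edgeR 4.0.16 in R 4.3.3 (quasi-likelihood, TMM factors, two-sided, Benjamini-Hochberg adjustment over all tested genes, threshold 0.05) on 12168 genes with a mean of at least 1 FPKM. The SE was taken from the log2 fold change and its F statistic. The length correction fits, per library, a natural spline (5 degrees of freedom) of log2 CPM deviations (prior count 2) on log2 mRNA length over coding genes and uses it as an offset. Alternatives were DESeq2 1.42.0, limma 3.58.1 on log2(FPKM + 1) and log2(FPKM + 0.1), other scalings and filters, the replicate number as a block, and fits without 1 library. The edgeR script was tested on simulated data. Members and lists were chosen with earlier results of these data known. Named genes are the members, CCL20, up to 4 called genes of each pathway list by F statistic or else its highest members up to 2, the 5 genes most like LY96, its neighbours in rank, and the highest marker of each cell type. Promoter letters are from RefSeq (GRCh38.p14), which matched 9 of the 10 members.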

Additional observations from a re-analysis of the deposited data

How the results depend on the processing

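The number of genes called was 3915 and stayed within 1.5 times of it except with the length correction (729, and 1147 with a minimum of 0.1 FPKM) and in fits without 1 library, which gave 650 to 7579. Of the tested members other than LY96, 1 was called by edgeR. The count was 0 with DESeq2 (2 at an unadjusted p under 0.05), 3 by total count, 6 on the TPM scale, 2 without a filter, 3 and 2 with limma at pseudocounts of 1 and 0.1, 0 with either length correction (0 also at an unadjusted p under 0.05), and 0 to 4 without 1 library (0 without either control, also at an unadjusted p under 0.05). For the 60 other pathway genes 13 calls became 20 on the TPM scale, 20 of 76 without a filter, 3 with either length correction and 0 to 33 without 1 library. In a fit without a library the lone one is assumed to vary like the other group's pair. Such fits called far fewer of all tested genes without a control library and more without an overexpression library. The labels give both groups numbers 1 and 2, but nothing says that these mark a shared batch; same-numbered libraries deviated together with a correlation of 0.265. A fit with the replicate block called 5758 of 12168 genes, more than the 3915 without the block. It called 2 of 8 members (TLR6 and TRAF6, edgeR adjusted p = 0.0131 for TRAF6) and 23 of 60 pathway genes.

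Signs turned for 7 named genes. IRAK1 was 0.15 and 0.17 with the 2 length corrections and -0.33 to 0.17 without 1 library. IRAK4 was 0.045 without a filter, 0.050 with edgeR's filter, 0.046 with the length correction, 0.080 with the second correction and -0.16 to 0.14 without 1 library. TICAM1 was -0.11 by total count, -0.39 on the TPM scale, -0.10 with either limma fit and -0.070 to 0.27 without 1 library. MAP2K3 was -0.19 by total count, -0.48 on the TPM scale, -0.18 and -0.19 with limma, -0.15 and -0.084 with the length corrections and -0.063 to 0.093 without 1 library. KRT5 was -0.043 by total count, -0.34 on the TPM scale, -0.060 with either limma fit and -0.17 to 0.45 without 1 library. HSP90B1 was -0.11 on the TPM scale, and COL1A1 was 0.097 and 0.090 with the length corrections. The cause was not tested. LY96 lay between 0.84 and 1.87 over the alternatives that kept all libraries.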
